A study of Mus musculus with 4 samples.

Results

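Genes of protein folding and stress signalling in the endoplasmic reticulum (ER), the compartment where secreted and membrane proteins are folded, were followed in splenic CD8 T cells of mice given the dioxin TCDD. The 10 genes were Hspa5, Hsp90b1, Calr, Canx, Pdia3, Pdia4, Pdia6, Xbp1, Ddit3 and Atf4. They were chosen by name, with earlier results of these data known. Every probe set that the platform annotation assigns to 1 of them alone was taken, and the 1 whose mean over the 4 arrays was highest stands for its gene. All 10 were measured, by 23 of the 22626 probe sets tested, among 12393 genes with a single symbol. The treated group (TCDD, a ligand of the aryl hydrocarbon receptor, at 10 µg/kg) and the control group (the solvent DMSO) were female C57BL/6 mice of 8 to 12 weeks, each injected intraperitoneally, with spleens taken after 24 h. The labels name no engineered allele in either group. The design text gives 4 mice for a group, with cell suspensions pooled and CD8 T cells purified to above 99%, and the RNA was amplified before hybridisation. Each group has 2 arrays, titled with the numbers 1 and 2. Whether these came from separate pools is not stated, so p-values reflect the spread of these arrays alone, and that spread may be technical.

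Newly made proteins enter the ER and are bound there by BiP (Hspa5), the main HSP70 chaperone, and by GRP94 (Hsp90b1), its HSP90 partner, while calnexin (Canx) and calreticulin (Calr) hold sugar-bearing chains and the disulfide isomerases Pdia3, Pdia4 and Pdia6 set their disulfide bonds. When unfolded chains accumulate, the unfolded protein response acts through the sensors IRE1, PERK and ATF6. IRE1 splices the RNA of Xbp1, PERK favours translation of Atf4, which induces Ddit3 (CHOP), and ATF6 and XBP1 raise chaperone genes through promoter motifs named ER stress response elements. In CD8 T cells calreticulin and Pdia3 also serve the loading of peptides onto MHC class I, and XBP1 takes part in effector differentiation.

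Promoter sequences are shown because they mark which of the 10 genes carry the classical ER stress response element (ERSE), CCAAT followed after 9 bases by CCACG, searched on both strands. All 10 genes matched a promoter window in RefSeq (GRCm38.p6), running from 250 bases before to 50 bases after the gene's start. The stretches below are given 5′ to 3′ on the gene's strand, with capitals for the ERSE, which reads in reverse in Calr and in the second match of Hsp90b1. They lie at chr2:34772017-34772051 (+) for Hspa5, chr10:86705525-86705664 (-) for Hsp90b1, chr8:84847067-84847101 (-) for Calr, chr11:50325792-50325826 (-) for Canx and chr12:17266483-17266517 (+) for Pdia6.
Hspa5: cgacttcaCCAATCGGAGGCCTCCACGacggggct
Hsp90b1: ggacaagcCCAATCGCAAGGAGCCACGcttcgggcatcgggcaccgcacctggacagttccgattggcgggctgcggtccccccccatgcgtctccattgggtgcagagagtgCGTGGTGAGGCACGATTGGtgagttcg
Calr: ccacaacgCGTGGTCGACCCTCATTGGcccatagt
Canx: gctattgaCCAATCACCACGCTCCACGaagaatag
Pdia6: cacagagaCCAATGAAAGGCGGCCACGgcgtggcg

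At least 1 ERSE was present in 5 of the 10 windows, against 39 of all 32851 promoter windows (0.119%). Hsp90b1 held 2, at 212 to 194 and at 107 to 89 bases before the start, and only 1 window of the whole table held more than 1. The ERSE of Hspa5 lay 65 to 47 bases before its start. The other motifs searched were ERSE-II (ATTGG followed after 1 base by CCACG, in 0.0365% of windows), the XBP1 element TGACGTGG (0.676%) and the ATF4 element TGATGCAA (0.895%), and each had 0 matches in the 10 windows. The core of the element bound by the aryl hydrocarbon receptor, GCGTG, was present in 8 of 10 windows against 32.4% of all windows. Of its 13 matches there, 4 overlapped an ERSE, in 3 promoters. A match describes these letters and does not show binding, and a window without a match shows only that the letters are not in it.

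Signal was similar over the arrays as a whole, with array medians from 5.97 to 6.03 on the log2 scale of the deposited RMA values. Arrays of the same treatment also differed from each other. Early response and dissociation genes had a list mean of 9.40 and 8.73 in TCDD numbers 1 and 2. In DMSO numbers 1 and 2 it was 9.99 and 9.42. The list also differed between treatments, with a median difference of -0.618 and 0 of its 20 genes called. Without overlap 7 were lower (35%, against 12.0% of all genes) and 1 higher (5%, against 12.9%). The largest differences were -1.89 for Hspa1a, -1.79 for Hspa1b and -1.695 for Fos. The 3′ minus 5′ signal of the Gapdh control probe sets, a measure of RNA degradation and amplification, was 5.35 and 5.27 in the arrays numbered 1 and 4.56 and 4.30 in those numbered 2, for TCDD and DMSO in turn. All 9 measured CD8 T cell markers had means above the median of all probe sets, 6.01, and several measured lower after TCDD, with 0 called. The list's median difference was -0.175 against 0.01 for all genes. Of the 9, 4 were lower after TCDD without overlap, where 12.0% of all genes were. Within number 1 all 9 were lower, where 55.3% of all genes were. Within number 2 it was 5 of 9, where 39.8% of all genes were lower. Cd8a, a chain of the CD8 coreceptor, differed by -0.73 and the surface gene Thy1 by -0.70 (limma p 0.04806 and 0.003738 unadjusted, 0.9973 adjusted for both). These 2 had the largest falls of the list and were chosen after their values were seen. Cd2 and Cd3d, the markers with the highest means, differed by 0.035 and -0.055. The other coreceptor chain gene, Cd8b1, differed by -0.07 and Cd5 by 0.02, and 7 of the 9 were below 0. The part of the lower CD8 T cell markers in the lower values of Pdia3, Hsp90b1 and the MHC class I genes given further on was not tested. DMSO number 2 stood apart in markers of other cells. It held the highest value of 6 of the 9 measured neutrophil markers, with S100a8 at 8.67 against 5.45 to 5.94 elsewhere. The share of all genes with their highest value in this array was not counted. DMSO number 2 was lowest for the dendritic cell list, at a mean of 6.58 against 7.07 to 7.54. Within that list it was not lowest for the low-signal genes Xcr1, at 5.50 against 5.44 to 5.72, and Zbtb46, at 5.33 against 5.26 to 5.31. Of the 11 measured B cell markers it was lowest for the MHC class II genes H2-Aa, H2-Eb1, H2-Ab1 and Cd74, which dendritic cells share, with Cd74 at 6.98 against 8.06 to 9.04. It was not lowest for the B cell genes Ms4a1, at 5.83 against 5.68 to 5.83, or Cd79a, at 5.60 against 5.46 to 5.83. It was also highest for the control probe sets of 18S ribosomal RNA, at 8.97 against 5.53 to 7.12 for the 5′ one and 7.93 against 6.30 to 7.07 for the middle one.

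Among the lumenal chaperones and isomerases, Pdia3 and Hsp90b1 had less signal in each TCDD array than in either DMSO array. With Xbp1 they were the 3 members lower within both numbers, as 20.2% of all genes were. Pdia3, the isomerase also called ERp57 that works with calnexin and calreticulin, measured 6.68 and 6.45 in TCDD numbers 1 and 2 against 7.22 and 7.47 in DMSO numbers 1 and 2. Its groups did not overlap, and the TCDD array was lower by 0.54 within number 1 and by 1.02 within number 2. The TCDD mean was 6.565 ± 0.163 (SD, n = 2) and the DMSO mean 7.345 ± 0.177 (SD, n = 2). This gives a difference of -0.78, or 1.717-fold less signal, and its 95% limits were -1.168 and -0.392. The unadjusted limma p was 0.003869 and the p adjusted over all probe sets by limma was 0.9973, so the difference did not pass. Pdia3 has a single probe set here, so no other probe set bears on it.

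Hsp90b1, the ER chaperone GRP94 that folds integrins and Toll-like receptors, measured 7.60 and 7.24 in TCDD numbers 1 and 2 against 7.96 and 8.00 in DMSO numbers 1 and 2. The DMSO arrays lay close together and above both TCDD arrays. The difference was -0.56 (95% limits -0.962 and -0.158, SE 0.154), with -0.36 within number 1 and -0.76 within number 2, and the limma p was 0.01638 unadjusted and 0.9973 adjusted. Its other probe set differed by nearly the same amount, -0.565, but with overlapping groups and limits of -1.643 and 0.513. Pdia3 and Hsp90b1 were the members whose treatment difference was larger in size than the gap between the arrays of either group, 2 of 10 where 14.8% of all genes met the same description.

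Calr and Canx, the lectin chaperones that hold glycoproteins until they are folded, measured lower after TCDD within number 2 and higher within number 1, where the change between numbers was not tested. Calr measured 9.39 and 8.89 in TCDD numbers 1 and 2 against 9.31 and 9.91 in DMSO numbers 1 and 2. Its difference was 0.08 within number 1 and -1.02 within number 2, with overlapping groups, and the fit gave -0.47 (95% limits -1.182 and 0.242). Its remaining probe sets ran the same way, at -0.43 and -0.315. Canx spread further, at 8.69 and 7.66 in TCDD numbers 1 and 2 against 8.32 and 9.63 in DMSO numbers 1 and 2. Within number 2 it was lower after TCDD by 1.97, or 3.918-fold, a difference below which 0.0707% of all probe sets fell, while within number 1 it was higher by 0.37. The fitted difference of -0.80 had limits of -2.238 and 0.638. Canx was not uniform over its probe sets: the other 2 differed by -0.01 and 0, with every array of the first between 6.20 and 6.39.

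Hspa5, the BiP chaperone that is the usual readout of the unfolded protein response, differed more between the arrays of a treatment than between treatments. It measured 12.54 and 10.75 in TCDD numbers 1 and 2 against 12.34 and 11.36 in DMSO numbers 1 and 2. Signal was 3.458-fold higher in number 1 than in number 2 among the TCDD arrays and 1.972-fold higher among the DMSO arrays. After TCDD it was higher by 0.20 within number 1 and lower by 0.61 within number 2. The fitted difference of -0.205 had limits of -1.957 and 1.547, which are folds of 0.258 and 2.92 of TCDD over DMSO. The other probe set of Hspa5, at 9.28, 7.39, 9.07 and 8.10 in the same order of arrays, had the same pattern and a difference of -0.25.

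Pdia4 and Pdia6, isomerases that attach to BiP complexes, showed the smallest spread of the 10 genes. Pdia4 measured 5.99 and 6.16 in TCDD numbers 1 and 2 against 5.95 and 5.91 in DMSO numbers 1 and 2, the single member with both TCDD arrays above both DMSO arrays. Its difference was 0.145 (limits -0.154 and 0.444), its mean lay just under that median of 6.01, a range in which RMA compresses differences, and its other probe set was at 0.01. Pdia6 measured 7.79 and 7.69 in the TCDD arrays and 7.99 and 7.69 in the DMSO arrays, so its arrays numbered 2 were equal. Its difference of -0.10 had limits of -0.473 and 0.273, folds of 0.720 and 1.209, which reflect the spread of these arrays alone. The other probe set of Pdia6, of low signal, went the other way, at 0.17. It measured 5.38 and 5.25 in the TCDD arrays, above 5.20 and 5.09 in the DMSO arrays.

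**Figure D1:**
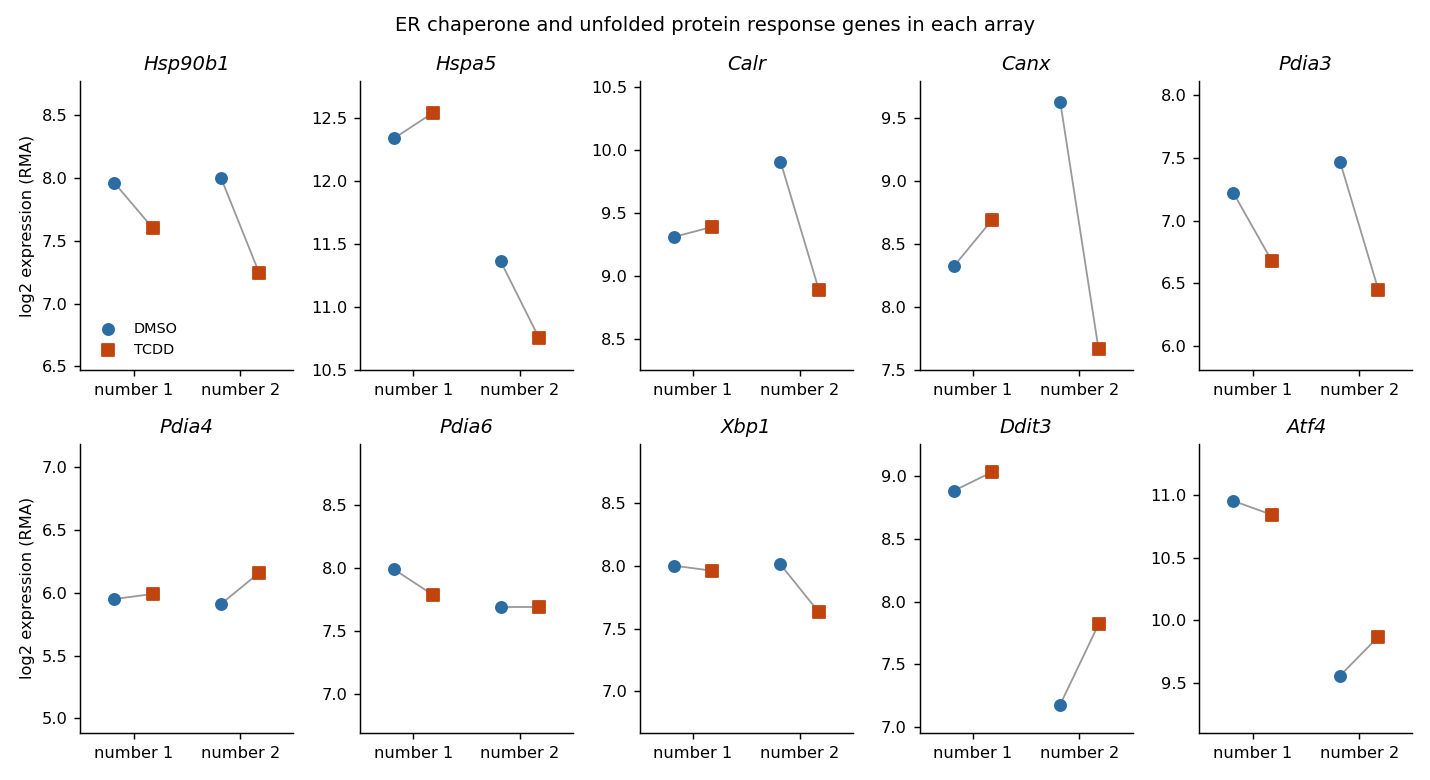
Log2 expression (RMA) of the main probe set of each of the 10 genes, by array; blue circles are DMSO arrays, orange squares are TCDD arrays, lines join arrays with the same title number, and every panel spans the same number of log2 units. Pdia3 and Hsp90b1 are lower after TCDD in both pairs, Calr and Canx fall steeply from DMSO to TCDD in number 2, and Hspa5, Ddit3 and Atf4 sit lower in number 2 than in number 1 for both treatments.

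The 3 transcription factor genes gave no difference with treatment that passed. Xbp1, whose spliced RNA encodes the activator of ER expansion, measured 7.96 and 7.63 in TCDD numbers 1 and 2 against 8.00 and 8.01 in DMSO numbers 1 and 2. Both TCDD arrays were lower, by 0.04 and 0.38 within the numbers, and the difference of -0.21 had limits of -0.592 and 0.172. It was -0.375 without TCDD number 1 and -0.045 without TCDD number 2. Of its 3 other probe sets, 1 differed by -0.225 with overlapping groups, and 2 of low signal, under that median of 6.01, differed by 0.025 and 0.02. Expression arrays of this kind do not report the spliced and unspliced forms separately.

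Ddit3, which encodes the proapoptotic factor CHOP, measured 9.03 and 7.82 in TCDD numbers 1 and 2 against 8.88 and 7.18 in DMSO numbers 1 and 2. The arrays numbered 2 were lower by 1.21 in TCDD and by 1.70 in DMSO, and within the numbers the TCDD array was higher by 0.15 and 0.64. The difference of 0.395 had an SE of 0.685 and limits of -1.395 and 2.185. Atf4, which encodes the activator of amino acid and stress genes downstream of PERK, measured 10.84 and 9.87 in TCDD numbers 1 and 2 against 10.95 and 9.56 in DMSO numbers 1 and 2. It was lower in number 2 by 0.97 in TCDD and by 1.39 in DMSO, and the treatment difference was 0.10 (limits -1.362 and 1.562). A further probe set of Atf4 differed by 0.29 with a similar gap between numbers, and the last, of low signal, by -0.085. As PERK acts on Atf4 mainly through translation, these RNA levels do not measure ATF4 protein.

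**Figure D2:**
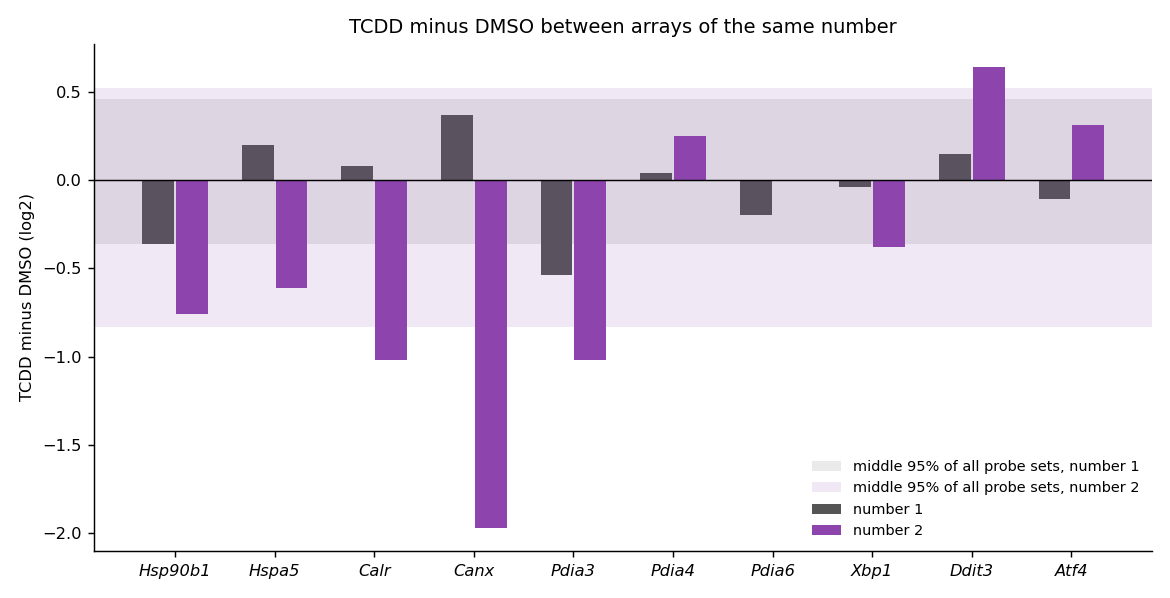
TCDD minus DMSO (log2) between the arrays numbered 1 (grey bars) and between those numbered 2 (purple bars) for each gene; the shaded bands hold the middle 95% of all probe sets for each number. Canx reaches -1.97 and Calr and Pdia3 -1.02 in number 2, below the band that starts at -0.83. Ddit3, at 0.64 in number 2, lies above the same band, which ends at 0.52. In number 1 Pdia3 at -0.54 lies below its band, which starts at -0.36, and Pdia6 is at 0 in number 2.

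Over the 10 genes the limma test called 0, where it called 0% of all 22626 probe sets, and 2 had an unadjusted p under 0.05, where 2.11% of all genes did. The groups did not overlap for 4 members: TCDD was lower for 3 (Pdia3, Hsp90b1 and Xbp1), against 12.0% of all genes, and higher for 1 (Pdia4), against 12.9%. Pdia4 and Ddit3 were higher within both numbers, 2 of 10 where 22.6% of all genes were. With 1 array left out a group holds 1 array, so separate groups are met more easily by construction. Counts of separate groups are therefore not compared with those of all 4 arrays. The median difference was -0.208 for the members and 0.01 for all genes, and the members' median became -0.553 without TCDD number 1, -0.047 without TCDD number 2, -0.082 without DMSO number 1 and -0.352 without DMSO number 2. It was 0.02, above 0, over the 7 members left when probe sets whose names end in _x_at, _s_at, _a_at and the like, which can match more than one transcript, were left out. By number the members' median was 0 within number 1 and -0.495 within number 2, where all genes had -0.03 and 0.05. Of the 10 genes, 5 (Hsp90b1, Hspa5, Calr, Canx and Pdia3) were lower after TCDD by at least 0.5 within number 2, as 6.49% of all genes were, and 1 (Pdia3) within number 1, as 0.936% were. By the main probe set, Hsp90b1, Calr, Canx, Pdia3 and Xbp1 had their highest value in DMSO number 2 and their lowest in TCDD number 2. These were 5 of 10 members, where 7.94% of all genes had this order. The order was singled out after the members' values were seen, so the comparison is a description only. The other probe sets of Calr had this order too, those of Hsp90b1, Canx and Xbp1 did not, and Pdia3 has no other. The members with an ERSE differed by -0.80 (Canx), -0.56 (Hsp90b1), -0.47 (Calr), -0.205 (Hspa5) and -0.10 (Pdia6), and the others ran from -0.78 (Pdia3) to 0.395 (Ddit3).

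DMSO number 2, the highest array for the main probe sets of Hsp90b1, Calr, Canx, Pdia3 and Xbp1, was also high for some transcripts of other cells. Of the 8 measured plasma cell markers, 4 were highest in DMSO number 2, where the share over all genes was not counted. The list mean was 6.55 and 6.52 in the TCDD arrays against 6.52 and 6.74 in the DMSO arrays. Jchain, the joining chain of secreted antibodies, measured 8.04 in DMSO number 2 and between 5.48 and 6.60 in the other arrays. It was chosen after its value was seen. The markers with the highest means were Ighm and Pou2af1. Ighm measured 11.03 in DMSO number 2 and 10.41 to 11.02 elsewhere, and Pou2af1 6.86 there and 6.80 to 7.26 elsewhere. The plasma cell surface gene Sdc1 stayed between 6.62 and 6.92 and the regulator gene Prdm1 between 5.22 and 5.36. Plasma cells are rich in ER chaperones, and RMA values have no zero, so none of these markers can be called absent. The part of such cells in the values of Calr, Canx, Hsp90b1 and Pdia3 was not tested, and in bulk samples fewer cells of a type and less RNA per cell cannot be told apart. The cytosolic stress chaperones Hspa1a and Hspa1b were also highest in DMSO number 2, at 9.14 and 11.94 against at most 6.72 and 9.68 elsewhere, and the 18S controls were highest there too, and the part of either was likewise not tested. Without DMSO number 2 the difference was -0.54 for Hsp90b1, -0.655 for Pdia3 and -0.205 for Xbp1. It was -0.17 for Calr and -0.145 for Canx, against -0.47 and -0.80 with all arrays, and Hspa5 moved to -0.695, Ddit3 to -0.455 and Atf4 to -0.595.

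**Figure D3:**
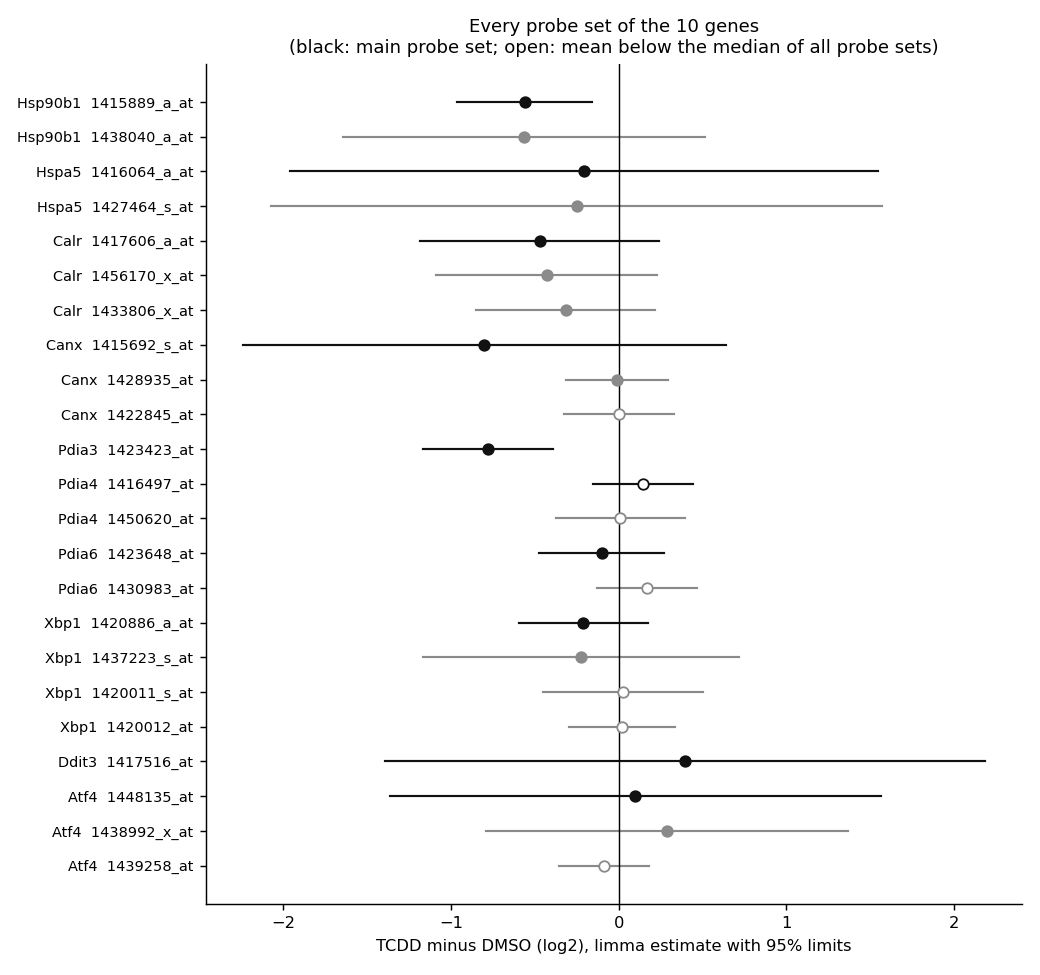
Difference TCDD minus DMSO (log2) of all 23 probe sets of the 10 genes, with 95% limits from the limma fit; black marks the main probe set of a gene, grey its others, and open circles probe sets with a mean below the median of all probe sets. The limits of Pdia3 (-1.168 to -0.392) and of the main probe set of Hsp90b1 (-0.962 to -0.158) lie below 0, and those of all the others span 0.

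In every member but Pdia3 and Hsp90b1, the gap between the arrays of at least 1 treatment was larger than the gene's treatment difference. For Hspa5, Ddit3, Atf4, Calr and Canx it was larger in both treatments. Hspa5, Ddit3, Atf4 and Pdia6 were the 4 members lower in number 2 than in number 1 in both treatments, as 19.3% of all genes were. Of these, Hspa5, Ddit3 and Atf4 were lower by at least 0.5 in both treatments, 3 of 10 members where 1.66% of all genes were. In the fixed list of other ER chaperones 1 of 33 met this description, Dnajb9, an ER J-domain cochaperone of BiP, at 9.97 and 7.91 in TCDD numbers 1 and 2 and 9.77 and 8.13 in DMSO numbers 1 and 2. In the list of sensors and regulators it was 1 of 20, Ppp1r15a (GADD34), the phosphatase subunit that reverses PERK signalling, at 10.26 and 9.14 against 10.62 and 8.43. In the list of ATF4 and CHOP targets it was 4 of 28, namely Atf3, Cebpb, Slc3a2 and Gadd45a, with Atf3 at 8.12 and 6.05 against 8.39 and 5.91. These genes were singled out after their values were seen. Of the early response and dissociation genes, which include Atf3, 10 of 20 met it. The gap went with the title number, as did the Gapdh 3′ to 5′ signal, and its cause was not tested.

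**Figure D4:**
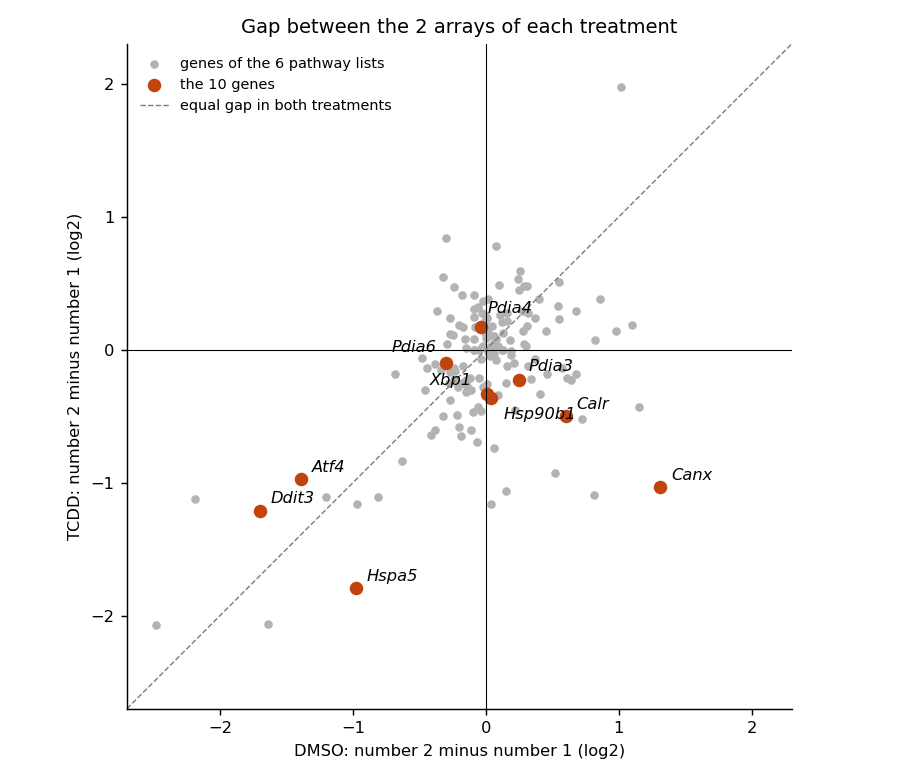
Gap between the arrays of a treatment, number 2 minus number 1 (log2), in DMSO (horizontal axis) and TCDD (vertical axis), for the 10 genes (orange) and for genes of the 6 pathway lists (grey); the dashed line marks an equal gap. Hspa5, Ddit3 and Atf4 lie at the lower left, with gaps from -0.97 to -1.79 in TCDD, and Canx lies at the lower right, at 1.31 in DMSO and -1.03 in TCDD.

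The wider pathway gave differences centred near those of all genes, apart from the list of MHC class I loading. Over all genes 12.0% were lower and 12.9% higher without overlap. Of 36 other ER chaperones and folding enzymes listed, 33 were measured, with a median difference of 0.015, 5 members lower (15.2%) and 3 higher (9.09%) without overlap, shares near those of all genes, and 0 past limma. Dnajc3 (p58IPK), an ER cochaperone of BiP that restrains PERK, was at -0.615 through 8.05 in DMSO number 2 against 6.79 to 6.98 elsewhere, the same array in which Canx peaked. Ero1b, the oxidase that recharges disulfide isomerases, differed by 0.53, with 8.64 and 7.99 in the TCDD arrays above 7.88 and 7.69 in the DMSO arrays. Dnajb11 (ERdj3), a cochaperone that binds substrates with BiP, differed by -0.35 within both numbers, at 8.75 and 8.88 against 9.10 and 9.23, with an unadjusted limma p of 0.03141 and an adjusted p of 0.9973. P4hb, the founding disulfide isomerase, and Ppib, an ER prolyl isomerase, differed by 0.025 and 0.005, values chosen after they were seen.

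The sensors and regulators of the response had 20 of 24 genes measured and a median difference of 0.017, with 1 lower (5%) and 0 higher without overlap and 0 past limma. The sensor genes Ern1 (IRE1), Eif2ak3 (PERK) and Atf6 differed by -0.05, 0 and 0.015. Eif2ak3 measured 8.17 and 7.01 in TCDD numbers 1 and 2 against 7.57 and 7.61 in DMSO numbers 1 and 2. Its difference of 0 thus joined 0.6 within number 1 and -0.6 within number 2, with limits of -1.019 and 1.019. Atf6 was of low signal, with a mean of 5.54, below the median of all probe sets. By the fixed rule Crebzf, a basic leucine zipper gene, was named at -0.375, the ATF6 relative Atf6b at -0.27 and Crebrf, a regulator of CREB3 turnover, at 0.23.

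Targets of ATF4 and CHOP had 28 of 35 genes measured and a median of -0.005, with 5 lower and 5 higher without overlap (17.9% each) and 0 past limma. The named members were Shmt2, the mitochondrial serine enzyme, at -0.505, the serine synthesis gene Psat1 at 0.44 and the AP-1 repressor gene Jdp2 at 0.335. Trib3 and Chac1, typical CHOP targets chosen after their values were seen, differed by -0.04 and -0.05.

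Genes of ER-associated degradation, which returns misfolded proteins to the cytosol, had 25 of 28 measured and a median of 0.005, with 3 lower and 3 higher without overlap (12% each) and 0 past limma. Herpud2 was at 0.535, higher within both numbers by 0.59 and 0.48, the deglycosylating enzyme gene Ngly1 at -0.505 and the channel protein gene Derl1 at 0.40. The translocon and glycosylation list had 33 of 35 measured and a median of -0.04, with 3 lower (9.09%) and 2 higher (6.06%) without overlap and 0 past limma. Its named members were Ssr3 at -0.545, Ostc at -0.415 and the signal peptidase subunit gene Spcs3 at -0.39, all with overlapping groups.

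The list of MHC class I peptide loading, the process in which calreticulin and Pdia3 act, had all 8 genes measured and a median of -0.258. That median was -0.11 without the probe sets of those name endings, whether all of them or _x_at and _s_at alone, and -0.164 with the mean of all probe sets of a gene. TCDD was lower without overlap for 5 members, against 12.0% of all genes, and higher for 0, and 0 passed limma. B2m, the light chain of class I, measured 11.19 and 11.48 in the TCDD arrays and 11.74 and 12.42 in the DMSO arrays, so it differed by -0.745. The peptide-trimming gene Erap1 differed by -0.74 and the heavy chain gene H2-D1 by -0.43. The peptide transporter genes Tap1 and Tap2 differed by 0.07 and 0.075, and Tapbp (tapasin), the partner of Pdia3 in the loading complex, by -0.20 with separate groups. DMSO number 2 held the highest value for 5 of these 8 genes, as it did for Pdia3 and Calr. It also did for 11 of 33 translocon and glycosylation genes and 9 of 33 other ER chaperones. In the lists of degradation, ATF4 and CHOP targets, and sensors it was 6 of 25, 6 of 28 and 5 of 20. The share over all genes was not counted.

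**Figure D5:**
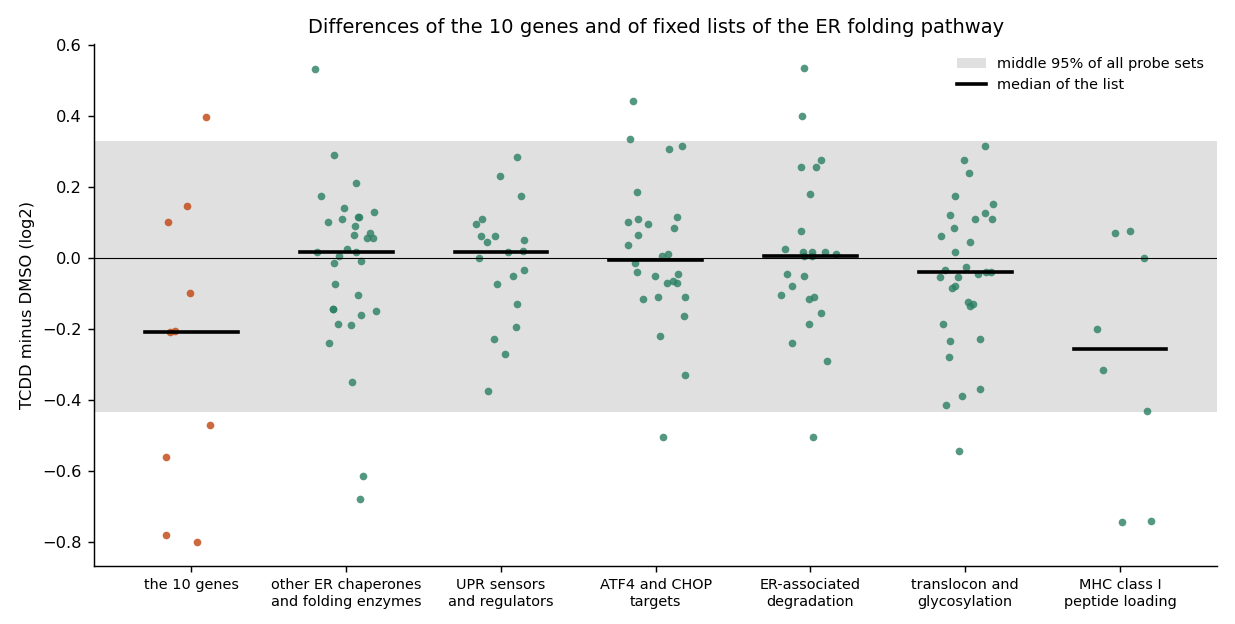
Difference TCDD minus DMSO (log2) of the 10 genes (orange) and of each measured gene in 6 fixed lists (green), with the median of each list as a bar and the middle 95% of all probe sets in grey. The medians are -0.208 for the 10 genes and -0.258 for MHC class I loading, and lie between -0.04 and 0.017 for the other 5 lists.

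Outside the members, ERSE matches lay in the promoters of 3 of 28 other ER chaperone genes with a window (Dnajc3, Ero1b and Creld2) and of 2 of 21 degradation genes (Syvn1 and Derl3), against 0.137% of all genes. Their differences went both ways: -0.615 for Dnajc3, 0.53 for Ero1b, -0.185 for the cysteine-rich ER protein gene Creld2, 0.005 for the ubiquitin ligase gene Syvn1 and -0.115 for Derl3, so these 5 did not share a direction. The genes whose profile over the 4 arrays was closest to the average of Hspa5, Hsp90b1, Calr, Pdia3, Pdia4 and Pdia6, among 7380 candidates, were Mbip, the lysosomal sorting receptor gene M6pr, the prosaposin gene Psap and Pclaf, at root mean square distances of 0.014 to 0.031 log2 units. Their differences were -0.30 to -0.32, and likeness over 4 arrays is a description only.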

How the data were processed

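The authors deposited 1 log2 value per probe set and array, made with RMA per the submitters' processing notes, with a version not given in the sources used here. That the values are log2 follows from their range. RMA as usually run quantile normalises arrays, so a shift common to all genes is removed. Of 22690 probe sets, 64 controls were left out of tests. Symbols came from the platform annotation, updated through RefSeq (GRCm38.p6): 20380 probe sets had 1 symbol, 691 several and 1555 none. TCDD minus DMSO was fitted with limma 3.58.1 in R 4.3.3 over 22626 probe sets, without covariate or filter, with Benjamini-Hochberg adjustment and a threshold of 0.05, after a check on simulated data. Exact permutation of 2 arrays against 2 reaches no two-sided p under 0.3333, so none was run. The rule names the 10 members, from each pathway list the 3 largest differences above the median level, and 4 like genes. The members and lists were chosen with earlier results of these data known. Same-numbered arrays deviated together (r = 0.234 over all probe sets, 2 pairs), and no label says that numbers mark pairs. The number of arrays limits precision.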

Additional observations from a re-analysis of the deposited data

How the results depend on the processing

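No member and no probe set passed limma in any of the fits tried (lowest adjusted p of a member, 0.7954), and a fold rule of at least 1 log2 unit with no test picks 34 probe sets. The alternatives were median centring, further quantile normalisation, 2 level filters, array weights, robust fitting with a variance trend, 2 removals of probe sets by name ending (that of _x_at and _s_at alone was added after seeing the data), gene means, the replicate block and each array left out, which leaves 1 array assumed to vary like the other group. With the replicate block Pdia3 stayed at -0.78 (SE 0.166, adjusted p = 0.9942) and no call changed. The level filters, the variance trend and the replicate block leave a probe set's difference as it is by construction. Under the other alternatives that keep all arrays, Xbp1 turned to 0.02 without the probe sets of every such ending, where Calr, Hsp90b1 and Hspa5 have no value and 1 member has separate lower groups and the members' median is 0.02, and Pdia6 turned to 0.035 for gene means. Pdia4 has no value above the median level. Canx was at -0.01 without _s_at probe sets. With arrays left out, Xbp1 ran from -0.375 to -0.045, Calr from -0.77 to -0.17, Canx from -1.455 to -0.145 and Pdia4 from 0.06 to 0.23. Hspa5 ran from -1.10 to 0.69, Ddit3 from -0.455 to 1.245, Atf4 from -0.595 to 0.795 and Pdia6 from -0.25 to 0.05. The members' median ran from -0.553 to -0.047. The cause of these ranges was not tested. The count with separate lower groups ran from 3 to 6, but a group of 1 array meets that rule more easily by construction. That count therefore does not show a dependence on any array.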
